A study of Mus musculus with 8 samples.

Results

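Matrix metalloproteinases (MMPs) and the proteins that hold them in check were followed through the cells of mouse lung adenocarcinomas. The 9 genes described are the proteases Mmp8, Mmp9, Mmp12, Mmp14, Mmp19 and Adam8 and the tissue inhibitors of metalloproteinases (TIMPs) Timp1, Timp2 and Timp3. They were taken by symbol from the 32286 gene features of each of 4 single-cell count matrices, and all 9 were present. The question asked of them was how proteases and inhibitors divide among macrophages, neutrophils, fibroblasts and tumour cells, and whether that division differs when Malat1 is targeted for activation in the tumour cells.

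MMPs are zinc-dependent endopeptidases, made as inactive precursors and secreted or held at the cell surface, that cleave collagens, elastin and other matrix proteins as well as cytokines and receptors. TIMPs are small secreted proteins that bind the active site of these enzymes and block it. In lung tumours both the infiltrating myeloid cells and the stroma are known sources of MMPs and TIMPs.

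The mA1 group consisted of KPC mouse lung tumours in which CRISPR activation with dead guide RNAs directed at Malat1 had been set going in the tumour cells when tumours were initiated. The Con group had the same system with dead guide RNAs directed at Tomato. In both groups tumours were started by a lentivirus given into the trachea, and the largest were taken after 16 weeks, digested with collagenase IV and DNase and depleted of dead cells; the labels spell out neither the KPC alleles nor the age or sex of the mice. Each group has 2 libraries of the 10x 3' type, in which cells were marked by 1 of 2 hashtags (antibodies to CD45 and MHC-I), so that a library and a hashtag stand for 1 of 4 tumours per group. Nothing in the labels says which tumours came from separate mice, so the p-values measure the spread between libraries, which may be partly technical.

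The mA1 libraries held 7369 and 3783 cells and the Con libraries 7100 and 5631 cells, with median depths of 4025 and 6396 against 5564 and 4073 transcript counts (unique molecular identifiers, UMIs) per cell. Xist stood at 0.613 and 1.38 counts per 1000000 UMIs (CPM) over all cells of the mA1 libraries, against 0.456 CPM in Con library 1 and 1224 CPM in Con library 2, and Ddx3y at 59.7 and 40.7 against 51.5 and 0.0833 CPM, so Con library 2 differed from the other 3 in its sex-linked transcripts. Malat1 itself stood at 26558 and 45928 CPM in the tumour-like epithelial class of mA1 libraries, against 40969 and 26416 CPM in those of the Con libraries, so the groups overlapped in the targeted transcript. Of the 23883 cells, 893 (3.74%) carried a barcode that another library also held. Most of these, 688, lay in clusters left unnamed, but 87 were tumour-like epithelial cells, 8.78% of that class, and made up 4.58% and 18.1% of the class in the mA1 libraries against 1.49% and 29% in the Con libraries. Clusters were named from marker genes, with the genes of the protease and inhibitor families left out of the clustering. Alveolar macrophage-like cells (3906), neutrophil-like cells (2137), macrophage cluster 4 (1775), cycling cluster 8 (1046), tumour-like epithelial cells (991) and C1q macrophage-like cells (866) were the classes the genes turned on, while fibroblast-like cells numbered only 111. Cluster 4, without an alveolar macrophage marker among its leading genes, and cluster 8, led by cell-cycle genes, kept their numbers, although all 13 alveolar macrophage markers reached 10 CPM in both. The fibroblast-like class also carried 7 of 7 pericyte and smooth muscle markers at 10 CPM or more, and only 10.8% of it, and 23.4% of the tumour-like class, carried 1 hashtag, so these classes could not be divided by tumour.

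Mmp8 and Mmp12 lie in the same MMP gene cluster on chromosome 9 (GRCm38, mm10), at chr9:7558429-7568486 and chr9:7344397-7360461. Mmp9 lies at chr2:164940326-164955850, Mmp14 at chr14:54431598-54442456, Mmp19 at chr10:128790910-128800827 and Adam8 at chr7:139978932-139995207. Timp1 lies on chrX:20870166-20874737, inside the Syn1 locus, Timp2 at chr11:118301061-118355411, and Timp3 at chr10:86300412-86349505, inside the Syn3 locus. All 9 are annotated as protein coding. Mmp8 lies inside Gm31751, and Mmp19, Adam8 and Timp2 each overlap part of another annotated gene; whether reads were counted by strand is not given in the sources used here. Of these partners, Syn1 and Syn3 held 998 and 215 UMIs in all cells, against 2940 for Timp1 and 6837 for Timp3.

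Promoter sequences were matched for 7 of the 9 genes in RefSeq (GRCm38.p6), as 300 bases from 250 before the start of transcription to 50 after it. The 4 shown are all on the plus strand. Mmp8 (chr9:7558179-7558478) and Mmp12 (chr9:7344147-7344446) are the genes of that cluster whose levels were highest in different myeloid classes. Timp1 (chrX:20869916-20870215) and Timp3 (chr10:86300162-86300461) are the inhibitors with most of their UMIs in fibroblast-like cells. Capitals mark AGGAAG, the core letters of many ETS factor sites, or TATAAA, on either strand; the matches do not overlap.
Mmp8: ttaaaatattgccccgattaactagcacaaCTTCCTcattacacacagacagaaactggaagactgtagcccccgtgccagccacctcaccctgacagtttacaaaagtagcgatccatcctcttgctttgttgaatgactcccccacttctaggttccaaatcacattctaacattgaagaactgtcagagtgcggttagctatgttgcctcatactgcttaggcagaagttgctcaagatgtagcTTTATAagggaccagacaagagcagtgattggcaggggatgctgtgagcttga
Mmp12: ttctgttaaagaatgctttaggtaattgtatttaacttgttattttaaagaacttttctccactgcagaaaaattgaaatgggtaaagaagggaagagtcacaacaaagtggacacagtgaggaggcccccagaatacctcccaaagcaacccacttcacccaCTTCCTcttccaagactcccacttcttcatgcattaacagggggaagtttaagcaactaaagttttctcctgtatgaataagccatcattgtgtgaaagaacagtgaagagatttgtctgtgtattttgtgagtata
Timp1: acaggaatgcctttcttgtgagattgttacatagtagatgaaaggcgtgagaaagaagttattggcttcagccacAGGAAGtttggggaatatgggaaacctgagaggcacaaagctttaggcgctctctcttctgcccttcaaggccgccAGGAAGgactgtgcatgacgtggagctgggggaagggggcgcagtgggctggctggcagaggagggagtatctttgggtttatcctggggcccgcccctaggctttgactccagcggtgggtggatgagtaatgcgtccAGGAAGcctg
Timp3: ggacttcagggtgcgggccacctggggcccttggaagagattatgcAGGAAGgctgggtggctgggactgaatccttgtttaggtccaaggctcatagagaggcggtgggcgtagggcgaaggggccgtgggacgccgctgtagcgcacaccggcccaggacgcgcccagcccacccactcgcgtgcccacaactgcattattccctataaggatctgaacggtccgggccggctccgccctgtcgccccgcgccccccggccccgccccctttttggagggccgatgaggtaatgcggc
Mmp12 had 2 listed promoters, and the one with the lowest start is shown. This Mmp12 promoter was AT-rich, with 38.7% G and C and 0 CpG. The Mmp8 promoter had 46% and 4 CpG, whereas Timp3 had 67% and 24 CpG, against medians of 52.7% and 7 CpG over promoters. Timp1 held 3 AGGAAG matches and Mmp8, Mmp12 and Timp3 1 each, and 35.4% of 32851 promoters hold at least 1. TATAAA matched only in Mmp8, on the opposite strand, and is present in 13.6% of promoters. The AP-1 letters TGANTCA, searched on both strands, matched in 0 of the 7 promoters and match in 7.81% of all. A match describes letters and not a bound site.

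**Figure D1:**
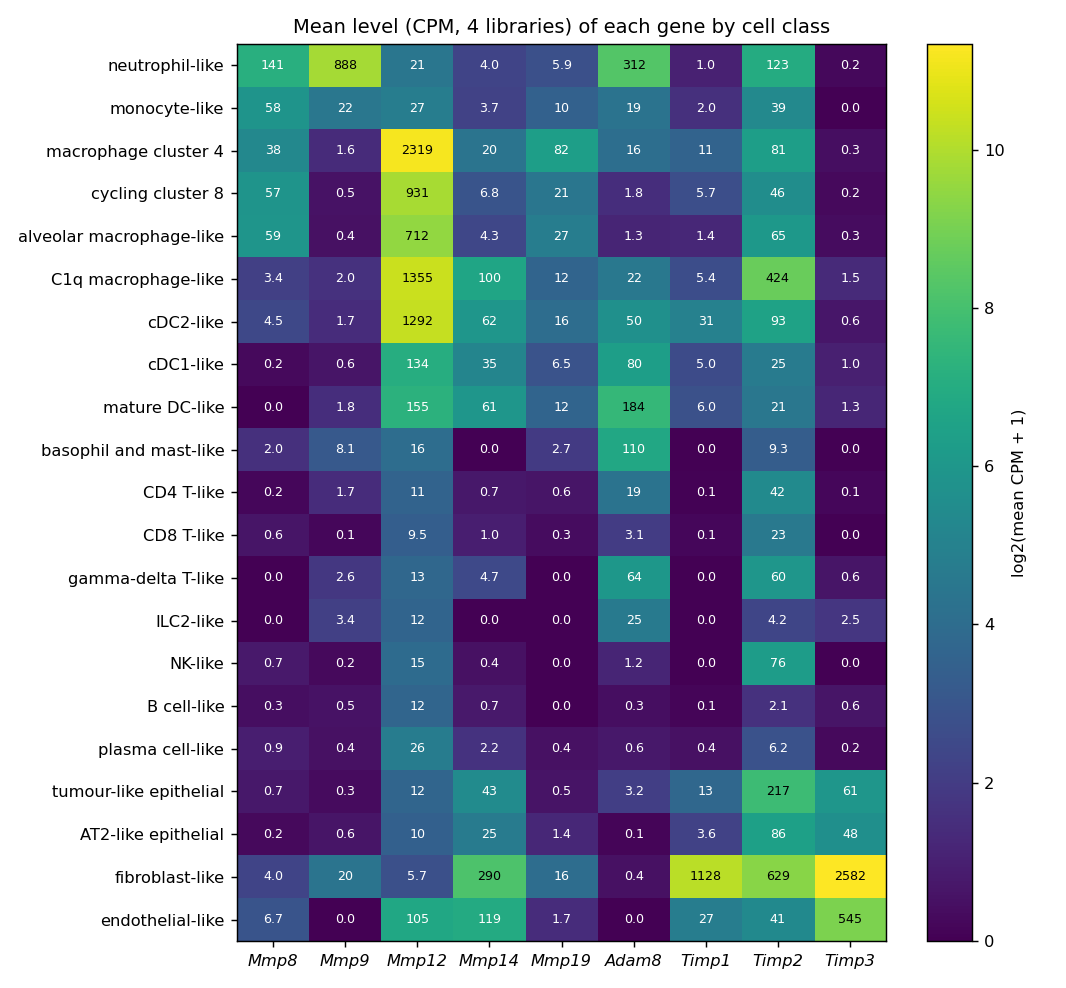
Mean level of each gene (columns) in each cell class (rows), in CPM of the UMIs summed per class and library and averaged over 4 libraries; the colour is log2(mean CPM + 1). Mmp9 fills 1 row, neutrophil-like cells at 888 CPM, Mmp12 fills the macrophage rows, and Timp1 and Timp3 peak in fibroblast-like cells.

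Mmp9, gelatinase B, which neutrophils store in granules, was the most concentrated of the proteases. Neutrophil-like cells held 1005 and 851 CPM in the mA1 libraries, against 692 and 1002 CPM in the Con libraries, and the groups overlapped. The mean over the 4 libraries was 888 ± 149 CPM (SD, n = 4), and the next class, monocyte-like cells, averaged 21.6 ± 2.73 CPM, and every library of the monocyte-like class lay below every one of the neutrophil-like class. These neutrophil-like cells, 8.95% of all cells, held 93.4% of the Mmp9 UMIs, the mean over libraries. At least 1 Mmp9 UMI was seen in 66.1% of neutrophil-like cells (median 1599 UMIs per cell), and in 53.5% after thinning each to 1000 UMIs (exact 95% interval 51.2 to 55.8), against 0.0831% of B cell-like cells (median 2331). The part of free RNA in these counts was not tested. Outside neutrophils the few Mmp9 UMIs often came from single cells: in the fibroblast-like class of Con library 2, all 24 lay in 1 cell, and in macrophage cluster 4 of mA1 library 1, 45 of 73 did.

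Mmp8, neutrophil collagenase, was highest per UMI in the same cells but was mostly found elsewhere. Neutrophil-like cells held 139 and 172 CPM in the mA1 libraries and 119 and 135 CPM in the Con libraries, a mean of 141 ± 22.3 CPM (SD, n = 4), above every other class in every library. Alveolar macrophage-like cells followed at 47.1 and 53.4 CPM (mA1) and 42.7 and 94.0 CPM (Con). Their range over libraries overlapped those of monocyte-like cells (57.9 ± 16.0 CPM), cycling cluster 8 (56.7 ± 17 CPM) and macrophage cluster 4 (38.2 ± 14.5 CPM, SD, n = 4 each). Within each library, however, cluster 4 lay below the alveolar macrophage-like class. The alveolar macrophage-like class and clusters 4 and 8 had medians of 12476 to 18977 UMIs per cell, against 1599 in neutrophil-like cells. Cell numbers differed as well, with 3906 alveolar macrophage-like and 2137 neutrophil-like cells. By amount the alveolar macrophage-like class held 47.5% of Mmp8 UMIs, the mean over libraries. Cluster 4 held 18.8%, cluster 8 18.7% and neutrophil-like cells 9.33%. C1q macrophage-like cells, at 3.44 ± 1.03 CPM, and dendritic cells, at 4.52 CPM or less, lay under every library of those 3 macrophage clusters. After thinning to 1000 UMIs, 13.1% of neutrophil-like cells and 5.09% of alveolar macrophage-like cells held an Mmp8 UMI, against 0% of 2354 B cell-like cells (exact 95% upper bound 0.157%).

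Adam8, a membrane-bound metalloprotease-disintegrin of leukocytes that cleaves adhesion molecules and receptors, was the third protease with its highest level in neutrophil-like cells. It stood at 294 and 243 CPM in the mA1 libraries and at 284 and 429 CPM in the Con libraries (mean 312 ± 81.1 CPM, SD, n = 4). Mature dendritic cell-like cells came next at 184 ± 38.1 CPM, then basophil and mast-like cells at 110 ± 45.1, cDC1-like cells at 79.9 ± 14.8, gamma-delta T-like cells at 63.7 ± 8.27 and cDC2-like cells at 50.3 ± 5.38 CPM (SD, n = 4 each); from basophil and mast-like cells down each neighbour overlapped the next. Alveolar macrophage-like cells, at 1.28 ± 0.147 CPM, and the B cell-like class, at 0.0831% of cells, held almost none. Neutrophil-like cells accounted for 33.4% of Adam8 UMIs, macrophage cluster 4 for 12.8% and mature dendritic cell-like cells, 0.842% of all cells, for 10.9%.

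Mmp12, macrophage elastase, was the transcript of the macrophages. Macrophage cluster 4 held 2022 and 1970 CPM in the mA1 libraries, against 2685 and 2601 CPM in the Con libraries, a mean of 2319 ± 376 CPM (SD, n = 4). C1q macrophage-like cells averaged 1355 ± 107, cDC2-like cells 1292 ± 148, cycling cluster 8 931 ± 66.9 and alveolar macrophage-like cells 712 ± 236 CPM. Cluster 4 stood above all of these in every library, whereas the C1q and cDC2-like classes overlapped, as did cycling cluster 8 and the alveolar macrophage-like class. The cDC2-like class also carried C1q macrophage markers, summing to 6348 and 3271 CPM (mA1) and 7580 and 3860 CPM (Con), beside its own at 4010 and 5230 CPM (mA1) and 4398 and 4460 CPM (Con), and their part in its Mmp12 level was not tested. Cluster 4 held 46.6% of Mmp12 UMIs, alveolar macrophage-like cells 24.7%, cycling cluster 8 13%, C1q macrophage-like cells 7.12% and cDC2-like cells 6.15%. At 1000 UMIs per cell, 68.9% of cluster 4 cells held an Mmp12 UMI, against 1.27% of B cell-like cells and 1.31% of tumour-like epithelial cells (medians of 17929, 2331 and 30338 UMIs). In tumour-like cells of mA1 library 2, 55 of 76 Mmp12 UMIs lay in 1 cell. The level varied widely from cell to cell: in cluster 4 the median was 14.8 per 10000 UMIs, with 1.34 at the tenth and 51.1 at the ninetieth percentile, and 4.85% of its cells held 0.

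Mmp19, an MMP that cleaves basement membrane components, was seen in the same macrophages, at levels that were highest in 1 library. Cluster 4 held 35.7 and 37.3 CPM in the mA1 libraries, and 55.0 and 199 CPM in the Con libraries. Alveolar macrophage-like cells showed 19.5 and 15.2 CPM (mA1) against 12.9 and 59.4 CPM (Con), and cycling cluster 8 showed 13.3 and 11.4 CPM (mA1) against 7.89 and 50.6 CPM (Con), so Con library 2 was the highest in each. Within each library, however, cluster 4 stood above the alveolar macrophage-like class and cluster 8. Con library 2 is also the library set apart by Xist, and the part of that difference in the result was not tested. Cluster 4 held 49.6% of Mmp19 UMIs and the alveolar macrophage-like class 30.6%. UMIs were at 0 in B cell-like, NK-like, gamma-delta T-like and ILC2-like cells.

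Mmp14, a membrane-anchored MMP that activates the precursor of Mmp2, was highest per UMI in fibroblast-like cells but was spread over several classes by amount. Fibroblast-like cells held 379 and 192 CPM in the mA1 libraries and 271 and 318 CPM in the Con libraries (mean 290 ± 78.8 CPM, SD, n = 4). C1q macrophage-like cells averaged 100 ± 21.7, cDC2-like cells 61.9 ± 9.36, mature dendritic cell-like cells 60.5 ± 11.9, and tumour-like epithelial cells 43.2 ± 9.18 CPM. Each of these overlapped its neighbour in its range over libraries. Within each library, however, C1q macrophage-like cells stood above cDC2-like cells, and mature dendritic cell-like cells above tumour-like cells. Fibroblast-like cells lay above all of them in every library. The endothelial-like class, at 119 ± 55.2 CPM, had only 35 cells. The tumour-like class, whose cells had a median of 30338 UMIs, still held 32.2% of Mmp14 UMIs, C1q macrophage-like cells 17%, cluster 4 11.8% and fibroblast-like cells 9.88%. Leaving out barcodes shared between libraries gave 25.5% for the tumour-like class.

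Of the inhibitors, Timp3, which binds to the extracellular matrix and also inhibits ADAM proteases, was near 0 in immune cells. Fibroblast-like cells held 2143 and 2833 CPM in the mA1 libraries and 2602 and 2752 CPM in the Con libraries, a mean of 2582 ± 308 CPM (SD, n = 4). The endothelial-like class averaged 545 ± 288 CPM, tumour-like epithelial cells 61.0 ± 14.2 CPM and AT2-like epithelial cells 48.3 ± 16.4 CPM. No immune class averaged more than 2.47 CPM. Although fibroblast-like cells were 0.465% of cells, they held 59.6% of Timp3 UMIs, and tumour-like epithelial cells held 32.6%. A Timp3 UMI was found in 69.1% of fibroblast-like cells thinned to 1000 UMIs, against 5.56% of tumour-like and 0.127% of B cell-like cells.

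Timp1, an inducible inhibitor that can also bind the precursor of Mmp9, had a similar fibroblast-centred pattern. Fibroblast-like cells held 878 and 1536 CPM in the mA1 libraries and 959 and 1139 CPM in the Con libraries, a mean of 1128 ± 293 CPM (SD, n = 4). The next class, cDC2-like cells, averaged 30.9 ± 8.36 CPM, and tumour-like epithelial cells held 26.2 and 10.2 CPM (mA1) against 7.14 and 8.12 CPM (Con). Fibroblast-like cells held 56.7% of Timp1 UMIs, tumour-like cells 13.7%, macrophage cluster 4 9.45% and cDC2-like cells 7.42%. Single cells weighed on the fibroblast-like values, where 1 cell held 123 of 401 and 137 of 256 UMIs in the mA1 libraries. In the Con libraries 1 fibroblast-like cell held 97 of 539 and 158 of 473 UMIs. The fibroblast-like part was lower without further Scrublet cells, as given in the last section. Some of the minor values were also single cells, such as 33 of 52 UMIs in the cDC2-like class of mA1 library 2 and 47 of 140 UMIs in cluster 4 of Con library 2.

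Timp2, which inhibits many MMPs and also takes part with Mmp14 in activating the Mmp2 precursor, was spread over fibroblast-like, macrophage, tumour-like and neutrophil-like cells. Fibroblast-like cells held 707 and 672 CPM in the mA1 libraries and 473 and 665 CPM in the Con libraries (mean 629 ± 106 CPM, SD, n = 4). C1q macrophage-like cells held 496 and 383 CPM (mA1) against 457 and 359 CPM (Con). This overlapped the fibroblast-like range, although within each library the C1q macrophage-like class was the lower. Tumour-like epithelial cells held 285 and 221 CPM (mA1) against 175 and 185 CPM (Con), and neutrophil-like cells averaged 123 ± 8.63 CPM. By amount the tumour-like class led with 33.3% of Timp2 UMIs, followed by alveolar macrophage-like (15.3%) and C1q macrophage-like cells (14.9%), cluster 4 (10.7%) and fibroblast-like cells (4.40%). Without barcodes shared between libraries the tumour-like part was 26.5%. B cell-like cells were near 0, with a Timp2 UMI in 0.255% of cells at 1000 UMIs, against 40% of fibroblast-like cells.

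**Figure D2:**
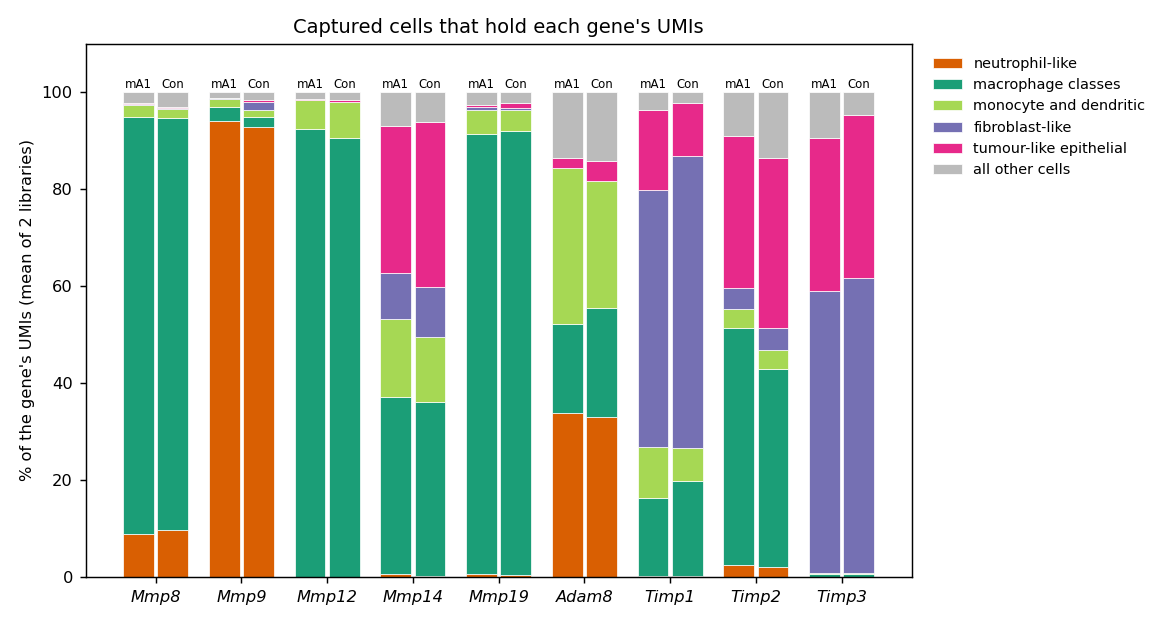
Part of each gene's UMIs (%, mean of 2 libraries per group) that lay in 6 groups of captured cells, with the mA1 bar left of the Con bar. Neutrophil-like cells held 94.0% of Mmp9 UMIs in mA1 and 92.8% in Con, the macrophage classes 92.3% and 90.5% of Mmp12 UMIs, and fibroblast-like cells 58.2% and 61.0% of Timp3 UMIs.

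The parts of each gene's UMIs in the groups of cells are given side by side, with no test of their difference. The 4 macrophage classes together held 86.0% (mA1) and 84.9% (Con) of Mmp8 UMIs, and 36.5% (mA1) and 35.8% (Con) of Mmp14 UMIs. Monocyte-like and dendritic cells held 32.3% (mA1) and 26.1% (Con) of Adam8 UMIs. Fibroblast-like cells held 53.1% (mA1) and 60.4% (Con) of Timp1 UMIs, while tumour-like cells held 16.5% (mA1) and 11% (Con), with the mA1 libraries (18.1% and 14.9%) above the Con libraries (12.5% and 9.38%). Timp2 UMIs lay in the macrophage classes to 48.9% (mA1) and 41.0% (Con), and in cells outside the named groups to 8.96% (mA1) and 13.6% (Con). These parts depend on which cells dissociation released, and fibroblast-like cells in particular were 32 and 12 cells in the mA1 libraries and 38 and 29 in the Con libraries.

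Within neutrophils, the transcripts separated by state. Sub-clustering gave a state 1 led by genes such as Retnlg and Slpi (1277 cells), a state 2 led by genes such as Siglecf, Ltc4s and Adamdec1 (445 cells), a state 3 led by Cxcl3 and Inhba (283 cells) and a state 4 led by interferon-induced Ifit genes (73 cells). Mmp8 stood at 244 and 365 CPM (mA1) and 240 and 219 CPM (Con) in state 1, but at 0 and 5.77 CPM (mA1) and 25 and 15 CPM (Con) in state 2, lower in every library. Adam8 stood at 403 and 416 CPM (mA1) and 489 and 551 CPM (Con) in state 1, against 94.4 and 63.5 CPM (mA1) and 139 and 188 CPM (Con) in state 2. Mmp9 differed less, with 1203 CPM over all libraries in state 1, 662 in state 2, 655 in state 3 and 894 in state 4. Timp2 was at 190, 47.2, 105 and 134 CPM in the 4 states. State 2 thus held Mmp9 but little Mmp8. States are clusters of the same cells, so these are descriptions, and states 5 and 6, led by lymphocyte genes, held only 41 and 18 cells.

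**Figure D3:**
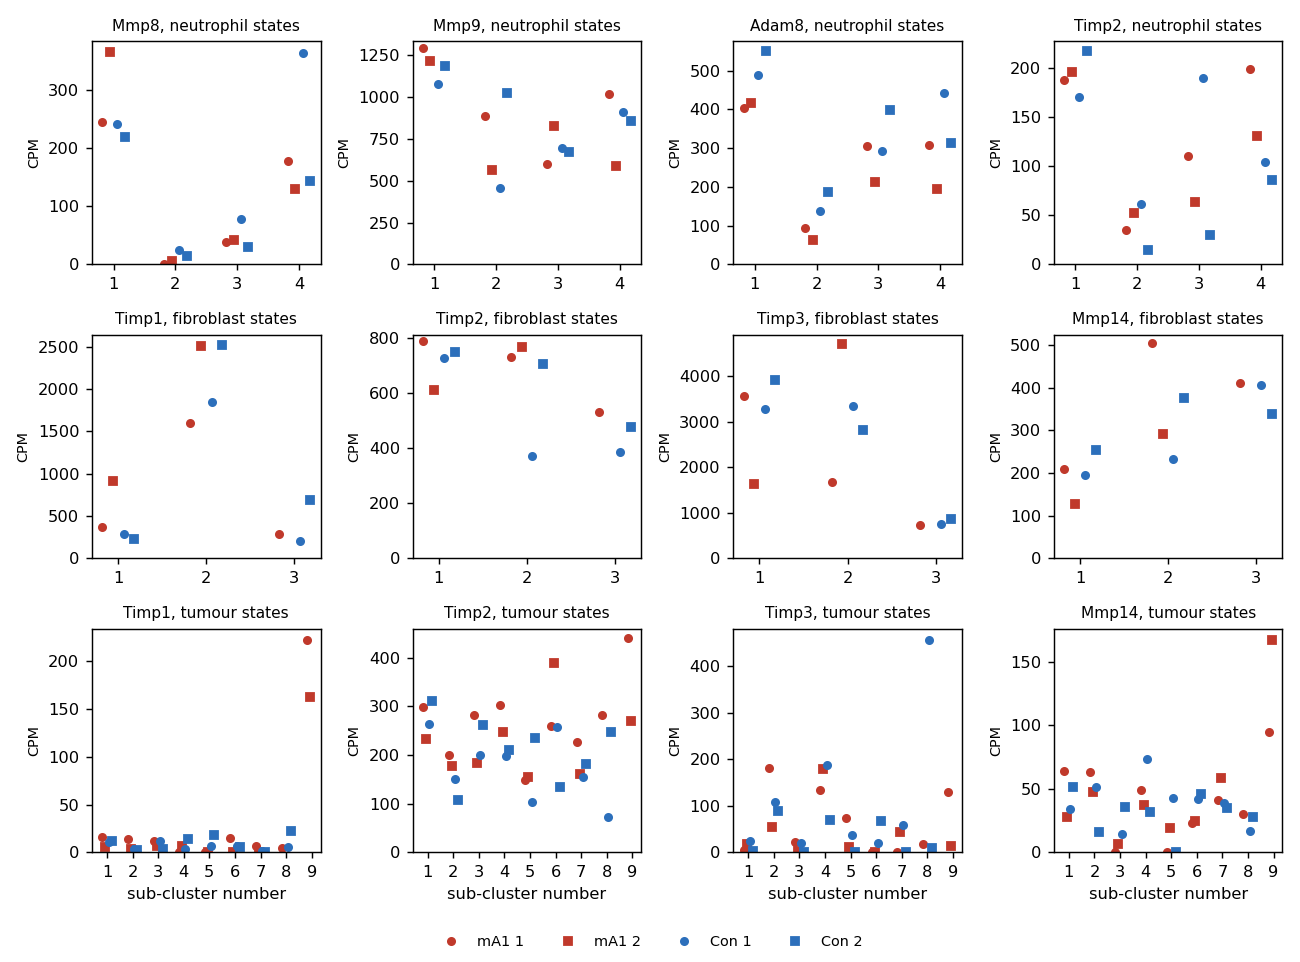
Level (CPM) of 4 genes in each sub-cluster of neutrophil-like (top), fibroblast-like (middle) and tumour-like epithelial cells (bottom), 1 point per library that held cells of it, red for mA1 and blue for Con. Mmp8 and Adam8 drop in neutrophil state 2, Timp1 peaks in fibroblast state 2, and Timp1 in tumour state 9 has mA1 points only.

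Among macrophages, Mmp12 peaked in every library in a small state 10 of 91 cells, 57 of them from Con library 1, whose leading genes include Arg1, Mfge8 and Slamf7. It reached 2474 and 4612 CPM (mA1) and 4508 and 3093 CPM (Con) there, 4113 CPM over all libraries, against 627 to 1965 CPM in the other states. Mmp19 stood at 10.2 and 58.3 CPM (mA1) and at 198 and 187 CPM (Con) in state 10, against 54.9 and 36.3 CPM (mA1) and 74.4 and 146 CPM (Con) in state 2, so state 10 was not the higher in mA1 library 1. State 2 had Xist and Mmp19 itself among its leading genes. It held 427 and 320 cells from the mA1 libraries and 222 and 480 from the Con libraries. Timp2 was high in state 10, at 405 CPM, and in the C1q-bearing state 5, at 419 CPM, but at 137 CPM or less elsewhere apart from state 9 (181 CPM). Mmp14 followed Timp2, with 108 CPM in state 5 and 66.3 CPM in state 10. Mmp8 went the other way, at 1.56 CPM in state 5 and 9.12 CPM in state 10 against 29.7 to 79.3 CPM in states 1 to 4 and 6 to 8.

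Fibroblast-like cells divided into state 1, with Hhip and Lum (53 cells), state 2, with Cthrc1 (34 cells), and state 3, with Rgs5 and Higd1b, genes of pericytes (24 cells). Timp1 was highest in state 2, at 1598 and 2513 CPM (mA1) and 1852 and 2518 CPM (Con), against 376 and 908 CPM (mA1) and 285 and 230 CPM (Con) in state 1. Timp3 was lowest in state 3, at 785 CPM over all libraries, against 3254 CPM in state 1 and 2868 CPM in state 2. Mmp14 was at 204, 351 and 387 CPM in the 3 states and Timp2 at 730, 591 and 453 CPM. State 3 had 0 cells in mA1 library 2.

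Tumour-like epithelial cells fell into 9 states, among which Timp3 varied widely. Timp3 stood at 138 CPM in state 4, led by Lcn2 and Lamp3, and at 112 CPM in state 2, led by Gsta1, but at 13.1 CPM in state 1, led by Cxcl3 and Plat, and 18.2 CPM in state 3. State 8, of 10 dividing cells, stood at 139 CPM. Timp2 ran from 113 CPM in state 5 to 269 CPM in state 1 among the 7 states of more than 10 cells. These Timp3 and Timp2 levels are over all libraries, and several states came mostly from 1 library. Con library 1 gave 160 of 205 cells of state 2, 140 of 160 of state 3 and 76 of 93 of state 5. Con library 2 gave 81 of 89 cells of state 6. The part of the libraries in the differences between states was not tested. State 9, with Vim, Nes, Fbln2 and Timp1 itself among its leading genes, held 6 and 4 cells from the mA1 libraries and 0 from the Con libraries. Timp1 stood at 223 and 163 CPM in it, from 92 and 36 UMIs of which 1 cell of mA1 library 1 held 71, while no other state exceeded 11.2 CPM over all libraries, and Mmp14 stood at 94.3 and 167 CPM. State 7 (31 cells) had macrophage genes among its leading genes and held Mmp12 at 289 CPM, where the other states had at most 7.45 CPM.

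The comparison of mA1 with Con was made in each class by edgeR's quasi-likelihood test on UMI sums over the 2 libraries per group, with Benjamini-Hochberg adjustment over all genes tested. In 16 classes with at least 20 cells in every library, 65 pairs of gene and class were testable, and 0 passed an adjusted p of 0.05. Over all genes 0% passed in alveolar macrophage-like, C1q macrophage-like, CD8 T-like, cDC1-like, cDC2-like, gamma-delta T-like and mature dendritic cell-like cells and in clusters 4 and 8, 0.0749% in tumour-like, 0.0162% in neutrophil-like, 0.0206% in monocyte-like, 0.0518% in NK-like, 0.0758% in plasma cell-like, 0.0217% in CD4 T-like and 0.0239% in B cell-like cells. Of the 65 pairs, 26 were higher and 39 lower in mA1, with a median log2 fold change of -0.13, against 0.00 over 133773 pairs of all genes, of which 24 passed. An unadjusted p under 0.05 was reached by 9 pairs (13.8%), against 4.01% of all pairs, and the smallest adjusted p was 0.549; DESeq2 called 0 of the 65 as well. Classes with at least 10 cells per library were added after the data were seen: 0 pairs passed there either, where 0% of all genes passed in fibroblast-like, AT2-like and ILC2-like cells and 0.0745% in basophil and mast-like cells.

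**Figure D4:**
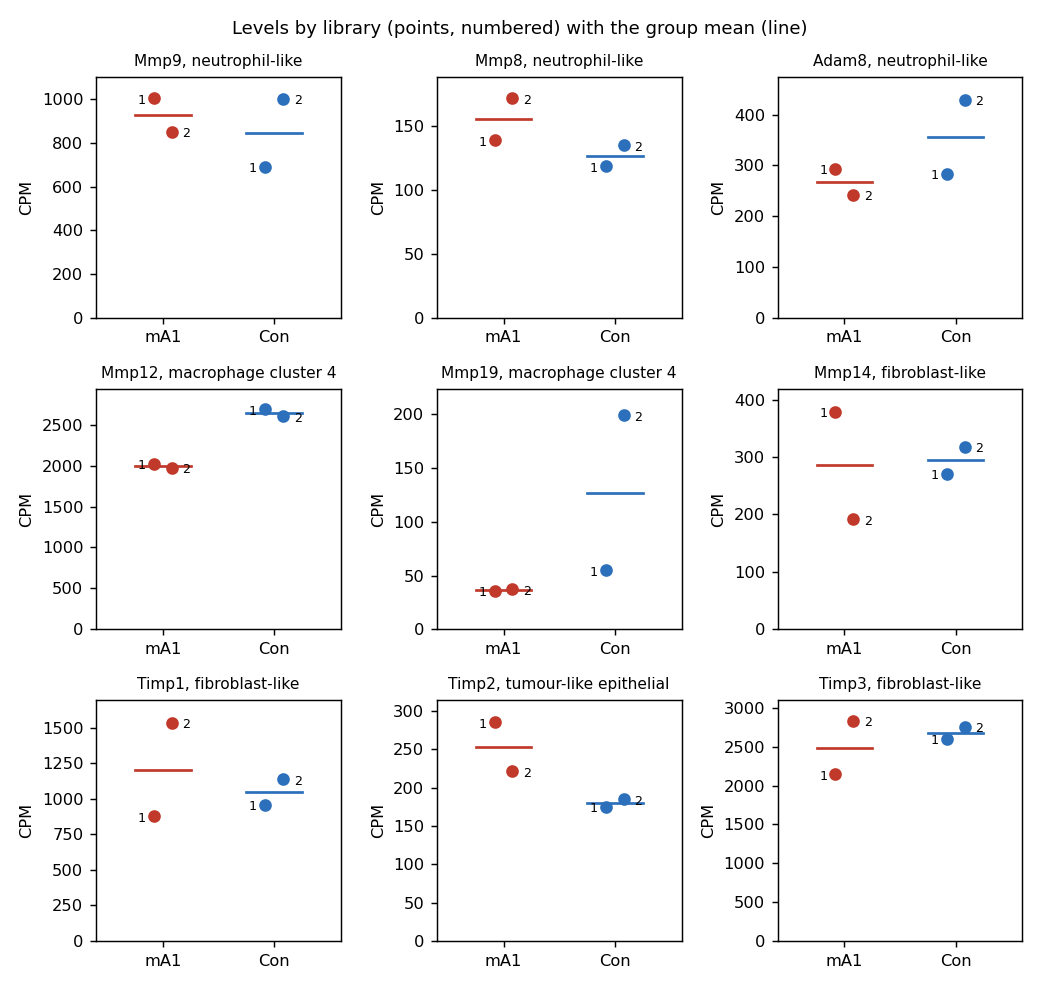
Level (CPM) of each gene, by library, in its highest class (Timp2 in tumour-like cells, which hold its largest part) as numbered points with the mean of each group (line), mA1 left of Con. The groups overlap for Mmp9, Adam8, Mmp14, Timp1 and Timp3 and part for Mmp8, Mmp12, Mmp19 and Timp2, with 2 libraries in each group.

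In the classes where each protease or inhibitor was highest, 0 differences passed adjustment. Mmp9 in neutrophil-like cells had a log2 fold change of 0.04 ± 0.30 (mA1 over Con, SE), with a 95% interval from -0.59 to 0.67. Mmp8 there was at 0.20 ± 0.25 and Adam8 at -0.50 ± 0.28, with intervals from -0.33 to 0.73 and from -1.09 to 0.10. Mmp12 in cluster 4 was at -0.39 ± 0.15, with the 2 mA1 libraries below the 2 Con libraries, an interval from -0.74 to -0.05 and an adjusted p of 1.00 by edgeR. Mmp19 in cluster 4 was at -1.73 ± 0.79 with an interval from -4.43 to 0.96. It was -2.38 without Con library 1, where it passed (adjusted p of 0.00175 by edgeR), and -0.63 without Con library 2, where the Mmp19 values in the alveolar macrophage-like class and cluster 8 turned to 0.42 and 0.66. In fibroblast-like cells Mmp14 was at 0.04 ± 0.30, Timp1 at 0.23 ± 0.27, Timp2 at 0.32 ± 0.22 and Timp3 at -0.07 ± 0.19.

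Of the 9 pairs with an unadjusted p under 0.05, 8 were in other pairs of gene and class, and 0 passed adjustment. Timp1 in C1q macrophage-like cells stood at 1.65 and 1.57 CPM (mA1) against 9.70 and 8.68 CPM (Con), a log2 fold change of -2.46 ± 0.59 with an adjusted p of 0.997 by edgeR. It rested on 3 and 2 UMIs in mA1 and 34 and 13 in Con. Mmp19 in the same cells stood at 5.51 and 4.72 CPM (mA1) against 12 and 24.7 CPM (Con), at -1.69 ± 0.44. In cluster 4, Adam8 was at 12 and 8.42 CPM (mA1) against 17.1 and 26.1 CPM (Con) and Mmp14 at 13.8 and 12.6 CPM (mA1) against 16.7 and 35.0 CPM (Con), with log2 fold changes of -0.98 ± 0.24 and -0.87 ± 0.33. Mmp14 in alveolar macrophage-like cells was at -0.85 ± 0.32. With no filter on low counts, Adam8 and Mmp14 in cluster 4 passed (adjusted p of 0.0022 and 0.00484 by edgeR). Calls over all genes rose many-fold in that setting too, as given in the last section, so these calls are not particular to the 2 genes.

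In tumour-like epithelial cells, at which the guides were directed, Timp1 had a log2 fold change of 1.22 ± 0.41 and Timp2 of 0.48 ± 0.17, each with an adjusted p of 0.549 by edgeR, and both were higher in the mA1 libraries than in the Con libraries. Timp1 rested on the 10 cells of state 9, and much of it on single cells: 1 cell held 71 of 148 UMIs in mA1 library 1 and 1 held 26 of 67 in mA1 library 2. Without state 9, a setting added after the data were seen, Timp1 stood at 10.7 and 4.86 CPM (mA1) against 7.14 and 8.12 CPM (Con). The log2 fold change was then -0.013. Leaving out mA1 cells high in Timp1 can only lower the mA1 level, so this shows where the UMIs lay and tests nothing. Timp2 without state 9 stood at 273 and 220 CPM (mA1) against 175 and 185 CPM (Con). State 1, with Timp2 at 269 CPM, made up 61 of 153 and 74 of 138 tumour-like cells in the mA1 libraries against 78 of 538 and 31 of 162 in the Con libraries, and the part of this in the Timp2 difference was not tested. Mmp14 was at 0.17 ± 0.22, Timp3 at 0.03 ± 0.24, Adam8 at -0.82 ± 0.69 and Mmp12 at -0.57 ± 0.47. With no filter on low counts, a setting that raised calls over all genes as well, Timp1 passed in tumour-like cells, with an adjusted p of 0.00132 by edgeR. In CD4 T-like cells Timp2 stood at 50.1 and 46.9 CPM (mA1) against 41.7 and 30.8 CPM (Con), at 0.51 ± 0.20.

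**Figure D5:**
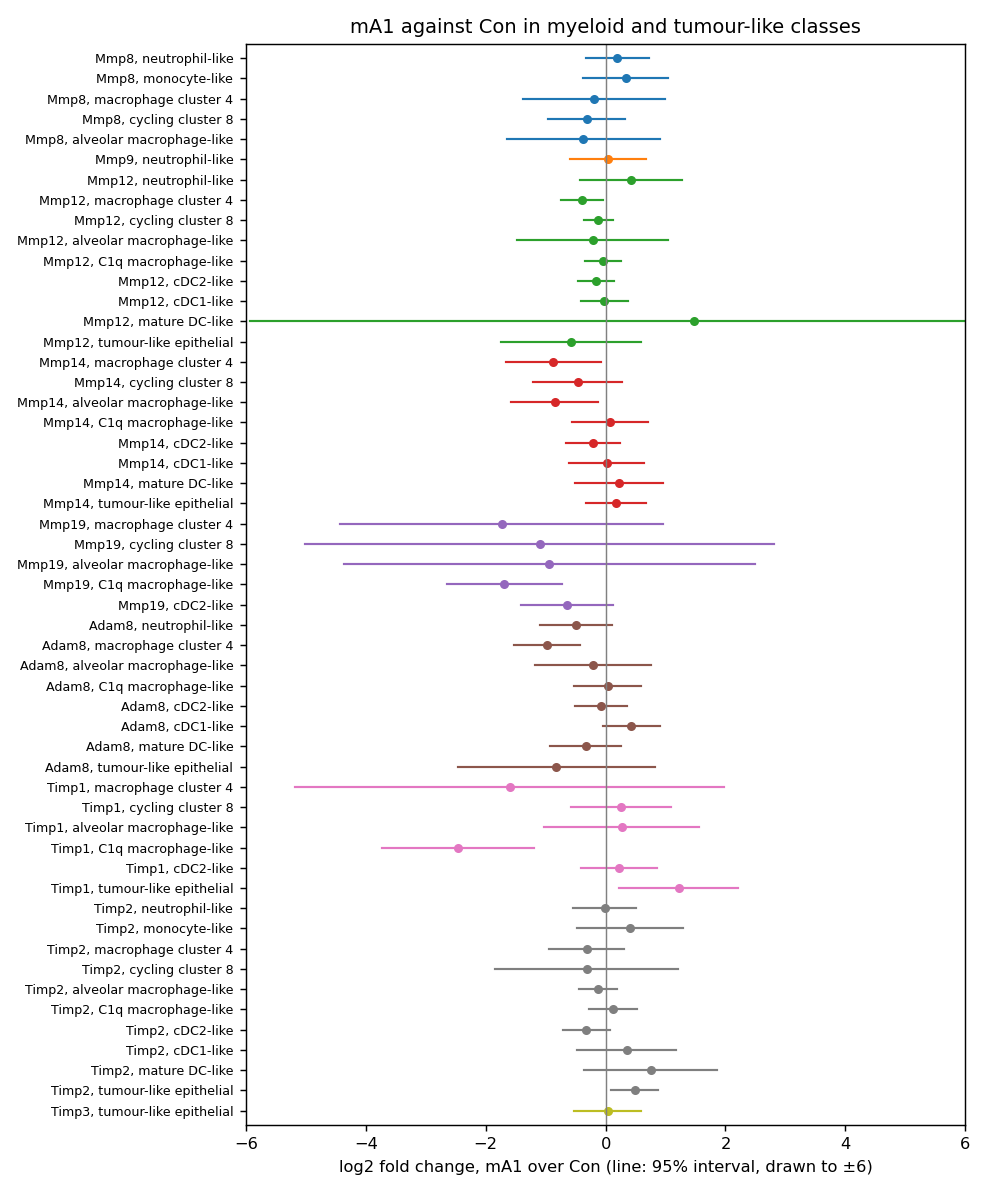
Log2 fold change, mA1 over Con, of each testable gene in myeloid and tumour-like classes, with 95% intervals from edgeR drawn up to 6 on either side. Most intervals cross 0; Timp1 lies at -2.46 in C1q macrophage-like cells and at 1.22 in tumour-like cells, and 0 of the 65 pairs tested over all classes passed adjustment.

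Other members of the protease system were read in the same way, from lists set with earlier results of these data known. Of 18 other MMPs and Timp4 in the files, Mmp25, a membrane-anchored MMP of leukocytes, was highest in mature dendritic cell-like cells (221 ± 22.7 CPM) and then gamma-delta T-like cells (117 ± 11.7 CPM; SD, n = 4 each), and Mmp2, gelatinase A, in fibroblast-like cells (184 ± 48.9 CPM). Chosen after their values were seen because they lie in the same chromosome 9 cluster as Mmp12 and Mmp8, Mmp13 was highest in tumour-like cells (57.7 ± 16.7 CPM) and so was Mmp10 (10.3 ± 5.82 CPM), while Mmp3 was at 104 ± 124 CPM in fibroblast-like and 41.0 ± 38.5 CPM in tumour-like cells, within its spread. In this list 0 of 17 testable pairs passed in either direction. Among 11 other ADAM genes, Adam10 stood at 144 ± 105 CPM in the 35 endothelial-like cells and 111 ± 16.9 CPM in macrophage cluster 4, within its spread, Adam23 led in mature dendritic cell-like cells (214 ± 58.0 CPM) and Adamdec1 in neutrophil-like cells (144 ± 109 CPM), with 0 of 79 pairs passing. Among ADAMTS genes, proteases of proteoglycans and procollagen, Adamts1 and Adamts9 led in endothelial-like cells (591 ± 164 and 283 ± 210 CPM) and Adamts2 in fibroblast-like cells (203 ± 64.8 CPM), with 0 of 25 pairs passing.

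Activators and partners were also divided. Lcn2, which forms a complex with Mmp9, stood at 2265 ± 725 CPM in AT2-like epithelial cells and 994 ± 337 CPM in neutrophil-like cells. Plaur, the receptor of the plasminogen activator urokinase, was highest in neutrophil-like cells (1279 ± 444 CPM). Cd44, a surface receptor that can dock Mmp9, stood at 1043 ± 133 CPM there and 869 ± 94.7 CPM in macrophage cluster 4. Thbs1 was at 1766 ± 947 CPM in neutrophil-like and 1361 ± 265 CPM in fibroblast-like cells, within its spread. Bsg, an inducer of MMPs, led in AT2-like cells (1019 ± 269 CPM), and Furin, which activates the precursor of Mmp14, in ILC2-like cells (555 ± 98.4 CPM). Plat, a plasminogen activator, and Lrp1, a clearance receptor, led in fibroblast-like cells (260 ± 74.3 and 421 ± 66.3 CPM). Cd63, a tetraspanin that binds Timp1, led in basophil and mast-like cells (1747 ± 391 CPM), and the related Cd9 in alveolar macrophage-like cells (3756 ± 319 CPM). Of 153 testable pairs, 0 passed.

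Of 14 matrix substrates, 9 led in fibroblast-like cells, among them Fn1 (3739 ± 1390 CPM), Col1a2 (3251 ± 815 CPM), Col1a1 (3126 ± 360 CPM), Col3a1 (2523 ± 915 CPM), Col5a1 (363 ± 53.4 CPM) and Eln, the elastin that Mmp12 cleaves (2804 ± 1553 CPM). Col4a1 and Col4a2, of the basement membrane, led in endothelial-like cells (3058 ± 436 and 1404 ± 332 CPM). Lamb1, also of the basement membrane, was at 218 ± 130 CPM there and 195 ± 27.9 CPM in fibroblast-like cells, within its spread. Spp1, cleaved by several MMPs, was at 2817 ± 2061 CPM in fibroblast-like cells and 1759 ± 1120 CPM in tumour-like cells. In this list 0 of 43 pairs passed, and the smallest adjusted p by edgeR, 0.126, belonged to Tnc in tumour-like cells, at a log2 fold change of -1.70 ± 0.30.

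The genes whose levels were most like those of each protease or inhibitor were found by Pearson correlation of log2(CPM + 1) over 82 sums of class and library, among 7121 genes. For Mmp9 they were Retnlg, Cstdc4 and Mrgpra2b (r of 0.84, 0.84 and 0.82), for Mmp8 Fpr2, Sirpb1b and Gm5150 (0.91 each), and for Adam8 Tnf, Nr4a3 and Nfkbia (0.79, 0.78 and 0.77). For Mmp12 they were Plet1, Dab2 and Itgax (0.87, 0.87 and 0.86), for Mmp19 Lrp1, Axl and Cd302 (0.83, 0.80 and 0.80), and for Mmp14 Pdgfa, Ccnd1 and Wtip (0.90, 0.88 and 0.88). For Timp1 they were Mxra7, Pdgfa and Pmp22 (0.87, 0.83 and 0.82), for Timp2 Emp1, Tmem65 and Slc35e4 (0.72, 0.72 and 0.71), and for Timp3 Serpinh1, Osmr and Fermt2 (0.97, 0.96 and 0.96). Sums of 1 library share their source, so these are descriptions.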

How the data were processed

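The deposited files hold UMI counts per gene and cell, 1 matrix per library, which the authors made with Cell Ranger 6.0.1 on the mm10 build, per the submitters' processing notes, with barcode filtering before deposit not given in the sources used here. Libraries held 48319272 to 74996867 gene UMIs in 4939 to 10168 barcodes. Barcodes with at least 500 UMIs, 250 genes and at most 15% mitochondrial UMIs were kept. Cells with both hashtags (102 to 270 per library) and Scrublet calls were left out as doublets; Scrublet called 0 cells in Con library 2 and was taken not to have worked there, so an alternative left out, in each library, as many further top-scoring cells as the both-hashtag cells imply.

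On log values of counts per 10000 in each cell, the 2000 most variable genes, without mitochondrial, ribosomal and MMP, TIMP and ADAM family genes and Malat1, gave 30 principal components, 15 neighbours and 32 Leiden clusters at resolution 1 (scanpy 1.11.5, leidenalg 0.10.2, igraph 0.11.9, python 3.11.15). Names come from marker sets and the 10 leading genes of a cluster; they are rebuilt and may differ from the submitters' own. Neutrophil, macrophage, tumour-like and fibroblast-like cells were split into sub-clusters at resolution 0.5. The UMI sums of each class in each library were given as CPM of that sum and tested with edgeR 4.0.16 in R 4.3.3 (TMM, filterByExpr, robust quasi-likelihood, two-sided), with DESeq2 1.42.0 as an alternative; the procedure was tested on simulated counts. The model also gave the standard error of each log2 fold change. Shares of cells are also given after thinning to 1000 UMIs, with exact binomial intervals, which cover counting error only. Other alternatives changed the low-count filter, the mitochondrial limit, the clusters, the replicates (libraries or the 4 tumours per group) and a library-number block. Library numbers gave no sign of pairing the samples. Every gene of the set is named; of the other lists, up to 30 genes with at least 50 CPM in a class, by mean level, of which 1 is not reported here; and for each gene the 3 most alike. The genes and lists were chosen with earlier results of these data known.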

Additional observations from a re-analysis of the deposited data

Results flagged for a closer look

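Single tumours stood apart in 8 of 64 sets of 4 tumours tested with Dixon's criterion, which chance alone flags in about 1 of 20. In mA1 tumours the highest value stood apart for Timp2 in NK-like cells (108.9 CPM, next 64.8), Mmp8 in alveolar macrophage-like cells (63.3 CPM, next 48.2), Timp1 in cDC2-like cells (63.7 CPM, next 25.2), Mmp12 in macrophage cluster 4 (2254 CPM, next 1989) and Adam8 in neutrophil-like cells (407 CPM, next 246). In the cDC2-like class of mA1 library 2, 1 cell held 33 of the 52 Timp1 UMIs. The lowest stood apart for Mmp14 in cDC2-like cells of mA1 tumours (30.6 CPM, next 62.2), a value that rested on few UMIs. In Con tumours the highest stood apart for Mmp14 in macrophage cluster 4 (64.4 CPM, next 17.2) and Timp2 in neutrophil-like cells (193 CPM, next 114).

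Timp1 went opposite ways in 2 classes, with every library on its side: a log2 fold change of -2.46 in C1q macrophage-like cells and of 1.22 in tumour-like epithelial cells. Both turned under an alternative, to 0.18 in C1q macrophage-like cells at resolution 0.5 and to -0.013 in tumour-like cells without state 9. That state held only mA1 cells, had Timp1 among its leading genes and was left out after the data were seen. The difference between the classes was not tested.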

How the results depend on the processing

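Counts of calls moved most. The 9 genes had 0 calls, 3 with no filter on low counts and 0 to 5 with 1 library left out. Without Con replicate 1 the calls were Mmp19 in alveolar macrophage-like cells and clusters 4 and 8, Mmp8 in alveolar macrophage-like cells and Adam8 in neutrophil-like cells. Mmp12 was called in CD4 T-like cells without mA1 replicate 1, where mA1 library 2 held 5 UMIs. It was also called in monocyte-like cells without mA1 replicate 2, where 1 cell of mA1 library 1 held 32 of 58 UMIs. The monocyte-like pair was not testable in the main setting. Over all genes the 24 calls became 769 with no filter, 114 with DESeq2, 41 with tumours as replicates (11 classes), 91 with the replicate block and 182 to 821 with 1 library left out; a lone library is then assumed to vary like the pair. Correlations of deviations between same-numbered libraries ran from -0.14 to 0.17, which gave no sign of pairing. With 2 libraries per group they cannot exclude it. A crossed block gave 229 calls over all genes.

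Thinned to 1000 UMIs, the part of cells with a UMI in the leading class was 13.1% for Mmp8, 53.5% for Mmp9, 68.9% for Mmp12, 22.7% for Mmp14, 5.25% for Mmp19, 25.8% for Adam8, 35.5% for Timp1, 40% for Timp2 and 69.1% for Timp3. At resolution 0.5, 877 cells of cluster 4 joined the alveolar macrophage-like class, and its part of UMIs was 24.2% for Mmp12 and 20.3% for Mmp19. Leaving out further Scrublet cells gave Timp3 2947 CPM and 40.8% of Timp1 UMIs in fibroblast-like cells; leaving out shared barcodes gave the tumour-like class 25.5% of Mmp14 and 26.5% of Timp2 UMIs.

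Signs of log2 fold changes turned for Timp1 in C1q macrophage-like cells at resolution 0.5 (0.18), where 191 cDC2-like cells joined the class, Timp1 in tumour-like cells without state 9 (-0.013), Timp2 in fibroblast-like cells without further Scrublet cells (-0.23) and Mmp14 in fibroblast-like cells with the replicate block (-0.020) or the crossed block (-0.049). With 1 library left out, fibroblast-like values ran from -0.55 (without mA1 1; -0.056 without Con 1) to 0.38 for Mmp14, from -0.24 (without mA1 2) to 0.61 for Timp1 and from -0.31 to 0.14 (without mA1 1) for Timp3. Mmp9 in neutrophil-like cells ran from -0.26 (without Con 1; -0.095 without mA1 1) to 0.42. Mmp12 in CD4 T-like cells ran from -2.18 to 0.35 (without mA1 2; 0.26 without Con 1), and Timp2 in AT2-like cells from -0.39 (without mA1 2; -0.26 without Con 2) to 1.77 (without Con 1, where it passed). Without Con 2, Mmp8 and Mmp19 in alveolar macrophage-like cells and Mmp19 in cluster 8 turned, in ranges from -0.82 to 0.23, -1.69 to 0.42 and -1.98 to 0.66. Where no construction shows it, the cause was not tested. With 2 libraries per group and few fibroblast-like cells, an absent call shows no equality.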
